A study of Homo sapiens with 6 samples.

Results

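The transcripts described here belong to 10 genes of the human antioxidant and iron storage programme: HMOX1, NQO1, GCLC, GCLM, SLC7A11, TXN, TXNRD1, SRXN1, FTH1 and FTL. They were chosen by name as classical targets of the transcription factor NRF2, with earlier results of these data known. The shares of all genes set beside them below are therefore a description only. All 10 had a row among the 17929 genes of the deposited expression table. The 6 libraries came from the established human embryonic stem cell lines H9 and HES2, grown on irradiated mouse embryonic fibroblasts and collected on day 4 after viral infection. In each line, 1 library carried the hairpin shDDX18#1, 1 carried shDDX18#3 (both against the nucleolar RNA helicase DDX18), and 1 carried the control hairpin shLuc. All libraries thus shared the virus infection and the feeder culture, and 4 knockdown libraries were set against 2 shLuc libraries.

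NRF2, encoded by NFE2L2, is normally held in the cytoplasm and sent for degradation by KEAP1. When oxidants or electrophiles modify KEAP1, NRF2 accumulates, pairs with small MAF proteins and binds antioxidant response elements near genes for glutathione synthesis, the thioredoxin system, quinone reduction, heme breakdown and ferritin. Ferritin messages are also controlled at translation: an iron-responsive element (IRE) in the 5′ leader binds iron regulatory proteins when iron is scarce, and this holds the message off the ribosome.

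The IREs of the ferritin messages are shown because FTH1 and FTL were the most abundant of the 10 transcripts and an mRNA level does not carry this second layer of control. Capitals mark the apical loop found by a search of the transcript strand for C, then any 5 bases, then CAGTGN. In both, all 5 bases on one side of the loop could pair with the 5 on the other, G-U pairs counted. The FTH1 window lies at chr11:61967577-61967604 on the minus strand and the FTL window at chr19:48965333-48965360 on the plus strand, both in the first part of the 5′ leader (GRCh38, GENCODE release 29).
FTH1 IRE: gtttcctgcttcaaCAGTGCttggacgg
FTL IRE: gtctcttgcttcaaCAGTGTttggacgg

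The core of the antioxidant response element, TGACNNNGC on either strand, was looked for in RefSeq promoters (GRCh38.p14, 250 bases before to 50 bases after a start site). Of the 10 genes, 7 had an entry, and HMOX1, SLC7A11 and FTH1 were not analysed here in this respect. The 7 genes have 8 promoters there, of which 3 held the core (1 of GCLM and both of TXNRD1), against 13.3% of all 35116 promoters. The 3 promoters are shown as the 150 bases that end with the first transcribed base, with the core in capitals. They lie at chr1:93909430-93909579 on the minus strand, and at chr12:104215630-104215779 and chr12:104286883-104287032 on the plus strand. A match is a description of these letters and not a shown binding site, and elements farther away lie outside the window. The AP-1 site TGANTCA, looked for on both strands and overlapping in its letters with an extended antioxidant element, was in 0 of the 8 promoters and in 7.71% of all promoters.
GCLM promoter: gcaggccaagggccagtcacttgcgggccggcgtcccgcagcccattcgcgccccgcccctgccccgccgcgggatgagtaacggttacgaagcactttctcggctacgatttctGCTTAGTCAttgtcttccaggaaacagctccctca
TXNRD1 upstream promoter: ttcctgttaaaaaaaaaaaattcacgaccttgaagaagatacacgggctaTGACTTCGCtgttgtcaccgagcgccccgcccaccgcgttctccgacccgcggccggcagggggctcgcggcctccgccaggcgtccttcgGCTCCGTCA
TXNRD1 downstream promoter: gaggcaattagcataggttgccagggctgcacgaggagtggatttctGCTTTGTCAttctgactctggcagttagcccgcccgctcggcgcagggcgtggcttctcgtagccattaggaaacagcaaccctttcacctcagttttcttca

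Recovered depth ran from 2668179 to 3391529 reads in knockdown libraries, against 3647530 and 4271741 reads in shLuc libraries. Levels are counts per 1000000 reads of the authors' effective library size (CPM), differences are on the log2(CPM + 1) scale, and p-values come from limma with Benjamini-Hochberg adjustment over all 17768 tested genes. Each line had 1 library per hairpin, so a gene's own spread is how far a difference between arms varies between the lines. For the p-values limma combines this with the spread of other genes at a similar level. In the fit with both hairpins pooled the gene's own spread also holds the difference between the hairpins. In the test of the effect between lines it is that hairpin difference within each line. The labels name no separate cultures, so how much of this spread is technical cannot be told. DDX18 transcript remaining was 12.6% and 31.0% of the own line's shLuc in H9 shDDX18#1 and H9 shDDX18#3, and 24.5% and 37.7% in HES2 shDDX18#1 and HES2 shDDX18#3. Of 10 pluripotency markers 0 rose and 7 fell, their summed share of reads being 0.404% to 0.547% in knockdown libraries and 0.684% to 0.766% in shLuc libraries. PODXL did not pass and went the other way, with 2502 and 2757 CPM in H9 shDDX18#1 and H9 shDDX18#3, against 2143 CPM in H9 shLuc. In HES2 it had 2930 and 2128 CPM in shDDX18#1 and shDDX18#3, against 1237 CPM in shLuc. PODXL weighs heavily in the sum, which was 4402 CPM in H9 shDDX18#1. Of 18 fibroblast and feeder markers 13 rose, 0 fell and 5 did not pass. The 18 together took 9.30%, 3.58%, 3.64% and 2.23% of reads in H9 shDDX18#1, H9 shDDX18#3, HES2 shDDX18#1 and HES2 shDDX18#3, against 0.688% in H9 shLuc and 0.273% in HES2 shLuc. Much of this was 1 gene, FN1, at 51833, 17115, 27157 and 14763 CPM of a summed 101300, 36920, 34760 and 21090 CPM in the same 4 libraries. THY1 and S100A4 were lower in both HES2 knockdown libraries than in HES2 shLuc (100 and 177 against 325 CPM, and 4.18 and 1.67 against 7.60 CPM). DCN was at 0 reads in HES2 shDDX18#3 and HES2 shLuc. H9 shDDX18#1 had the least DDX18 and the largest share of fibroblast marker reads, and it was the highest of the 6 libraries for all of the 10 genes except GCLC and SLC7A11. The part these markers play in any value below was not tested, and in bulk RNA a change in cell mixture and a change of RNA per cell cannot be told apart.

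HMOX1, NQO1, GCLM, FTH1 and FTL were higher in all 4 knockdown libraries than in both shLuc libraries, which is 5 of 10 genes against 19.8% of all tested genes. GCLC was lower in all 4, 1 of 10 against 20.9% of all tested genes. SLC7A11, TXN, TXNRD1 and SRXN1 overlapped between the groups. The same 5 genes were above their own line's shLuc in all 4 knockdown libraries (25.8% of all tested genes were) and GCLC was below it in all 4 (27.9% were). With both hairpins pooled, NQO1 and FTL passed the test as higher and 0 genes passed as lower (2 of 10, against 9.60% of all genes called higher and 6.26% called lower). The median difference of the 10 genes was 0.46, and that of all tested genes was -0.02.

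**Figure D1:**
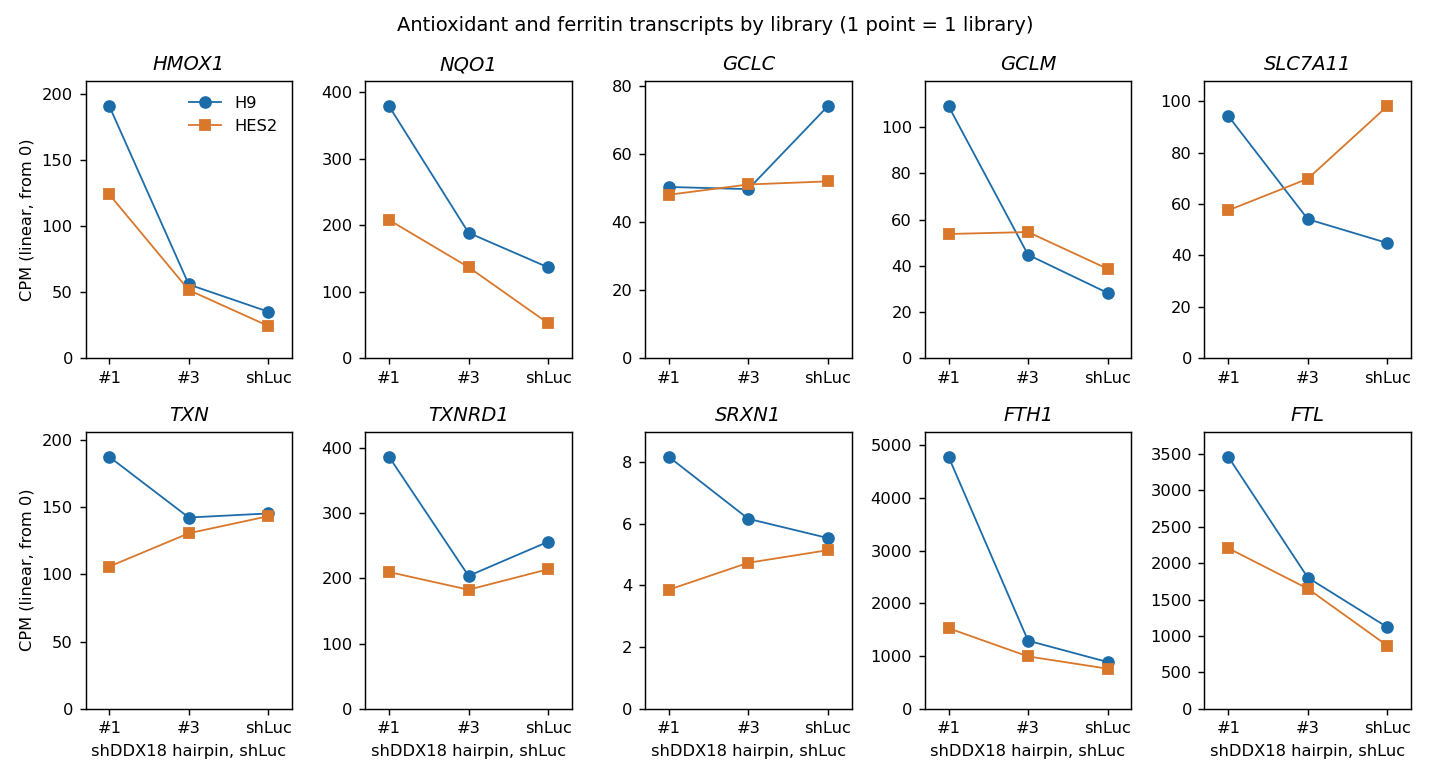
Level of each of the 10 genes in CPM (linear axis from 0) for shDDX18#1, shDDX18#3 and shLuc in H9 (circles) and HES2 (squares); each point is 1 library and lines join the libraries of a line. HMOX1, NQO1, GCLM, FTH1 and FTL have all 4 knockdown points above both shLuc points, while SLC7A11 runs in opposite directions in the lines.

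Heme oxygenase 1, encoded by HMOX1 (ENSG00000100292, chr22:35380361-35394214, plus strand), splits heme into biliverdin, carbon monoxide and ferrous iron. HMOX1 stood at 191 CPM with shDDX18#1 in H9 and 55.8 CPM with shDDX18#3, against 35.2 CPM in H9 shLuc. In HES2 it stood at 124 CPM in shDDX18#1 and 51.5 CPM in shDDX18#3, against 24.4 CPM in shLuc. Both lines therefore had the same order, with shDDX18#1 highest and shLuc lowest, and the groups did not overlap. The ratio to the own line's shLuc was 5.42 (95% counting interval 4.45 to 6.65) in H9 shDDX18#1 and 5.08 (4.10 to 6.35) in HES2 shDDX18#1. With shDDX18#3 it was 1.59 (1.25 to 2.01) in H9 and 2.11 (1.66 to 2.70) in HES2. Counting error thus left each of the 4 ratios above 1. Over both hairpins HMOX1 averaged 105 ± 65.8 CPM in knockdown libraries (SD, n = 4) and 29.8 ± 7.63 CPM in shLuc libraries (n = 2), a log2 difference of 1.60 with SE 0.48 that did not pass (limma adjusted p = 0.0577). It passed without H9 shDDX18#3 (1.99, limma adjusted p = 0.0110).

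NAD(P)H quinone dehydrogenase 1, the product of NQO1 (ENSG00000181019, chr16:69706996-69726951, minus strand), reduces quinones in a step that avoids reactive semiquinones. NQO1 had 379 CPM with shDDX18#1 in H9 and 188 CPM with shDDX18#3, against 136 CPM in H9 shLuc. In HES2 it had 208 CPM in shDDX18#1 and 137 CPM in shDDX18#3, against 52.5 CPM in shLuc. The lowest knockdown library, HES2 shDDX18#3 at 136.7 CPM, barely exceeded H9 shLuc at 136.5 CPM, but each knockdown library exceeded its own line's shLuc by more than counting error. Ratios to the own line's shLuc were 2.77 (2.48 to 3.10) in H9 shDDX18#1 and 1.38 (1.22 to 1.56) in H9 shDDX18#3, and 3.95 (3.40 to 4.61) in HES2 shDDX18#1 and 2.60 (2.22 to 3.05) in HES2 shDDX18#3. Over both hairpins NQO1 rose by a log2 difference of 1.31 with SE 0.31 (limma adjusted p = 0.0270), higher in 4 of 4 libraries than in their own line's shLuc. The NQO1 call was lost without HES2 shDDX18#1 (limma adjusted p = 0.0662) or HES2 shDDX18#3 (0.0501). Those fits called 771 and 1064 of all tested genes higher, against 1706 with all 6 libraries. It was also lost without H9 shLuc (1.66) or HES2 shLuc (0.96), which leaves 1 shLuc library. Differences lay between 0.96 and 1.66 over the 6 libraries left out in turn.

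Glutathione is built from cystine imported by SLC7A11, the transport subunit of system xc-, and joined to glutamate by glutamate-cysteine ligase, whose catalytic subunit is GCLC and whose modifier subunit is GCLM. The 3 transcripts did not move as a group. GCLM (ENSG00000023909, chr1:93885205-93909456, minus strand) had 109 CPM in H9 shDDX18#1 and 44.7 CPM in H9 shDDX18#3, against 28.2 CPM in H9 shLuc. In HES2 it had 53.7 CPM in shDDX18#1 and 54.6 CPM in shDDX18#3, against 38.7 CPM in shLuc. The excess was thus concentrated in H9 shDDX18#1, where the ratio to shLuc was 3.86 (3.06 to 4.90), the other 3 ratios lying between 1.39 and 1.58. Over both hairpins the GCLM difference was 0.88 with SE 0.34 and did not pass (limma adjusted p = 0.112). It passed without H9 shDDX18#1 (0.55, limma adjusted p = 0.0463) and without H9 shDDX18#3 (1.09, 0.0409).

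GCLC (ENSG00000001084, chr6:53497341-53616970, minus strand) had 50.2 and 49.6 CPM in H9 shDDX18#1 and H9 shDDX18#3, against 73.9 CPM in H9 shLuc. In HES2 it had 47.9 and 51.0 CPM in shDDX18#1 and shDDX18#3, against 51.9 CPM in shLuc. The 4 knockdown libraries lay between 47.9 and 51.0 CPM, and the ratios to shLuc were 0.679 (0.544 to 0.844) and 0.671 (0.546 to 0.822) in H9, and 0.924 (0.747 to 1.14) and 0.983 (0.805 to 1.20) in HES2. The knockdown effect in HES2 minus that in H9 was 0.49 (95% interval -0.24 to 1.22) and did not pass (limma adjusted p = 1.00). The pooled GCLC difference of -0.31 (95% interval -0.70 to 0.07) did not pass either (limma adjusted p = 0.229), and was -0.56 with HES2 shLuc left out and -0.07 with H9 shLuc left out. The ratio of GCLM to GCLC reads was 2.17 and 0.902 in H9 shDDX18#1 and H9 shDDX18#3, against 0.382 in H9 shLuc, and 1.12 and 1.07 in HES2 shDDX18#1 and HES2 shDDX18#3, against 0.746 in HES2 shLuc. All 4 knockdown libraries therefore had more modifier relative to catalytic subunit reads than either shLuc library.

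SLC7A11 (ENSG00000151012, chr4:138164097-138242349, minus strand) had 94.3 and 54.1 CPM in H9 shDDX18#1 and H9 shDDX18#3, against 44.9 CPM in H9 shLuc. In HES2 it had 57.6 and 69.9 CPM in shDDX18#1 and shDDX18#3, against 98.1 CPM in shLuc. The lines went opposite ways, with ratios of 2.10 (1.71 to 2.59) and 1.21 (0.967 to 1.51) in H9 and 0.587 (0.490 to 0.700) and 0.712 (0.607 to 0.834) in HES2. The pooled difference of 0.02 (95% interval -0.71 to 0.75) averages over these, is negative at -0.01 with plain CPM scaling or edgeR, and did not pass (limma adjusted p = 0.973). The knockdown effect in HES2 minus that in H9 was -1.28 (-2.43 to -0.13) with a limma adjusted p = 1.00. Of the 10 genes SLC7A11 alone had an unadjusted p under 0.05 in that test, against 4.43% of all tested genes, and limma called 0 of the 17768 genes while DESeq2 called 9 higher and 4 lower, 0 of them among the 10.

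In the thioredoxin system, thioredoxin (TXN) reduces protein disulfides, thioredoxin reductase 1 (TXNRD1) recharges it with NADPH, and sulfiredoxin (SRXN1) repairs overoxidised peroxiredoxins. TXN (ENSG00000136810, chr9:110243811-110256640, minus strand) had 187 and 142 CPM in H9 shDDX18#1 and H9 shDDX18#3, against 145 CPM in H9 shLuc, and 106 and 131 CPM in HES2 shDDX18#1 and HES2 shDDX18#3, against 143 CPM in HES2 shLuc. TXNRD1 (ENSG00000198431, chr12:104215779-104350305, plus strand) had 386 and 204 CPM in H9 shDDX18#1 and H9 shDDX18#3, against 256 CPM in H9 shLuc, and 209 and 182 CPM in HES2 shDDX18#1 and HES2 shDDX18#3, against 214 CPM in HES2 shLuc. For both genes H9 shDDX18#1 was the highest of the 6 libraries, and 3 of 4 knockdown libraries lay below their own line's shLuc. SRXN1 (ENSG00000271303, chr20:646615-653370, minus strand) was the least abundant of the 10 genes, with 8.17 and 6.16 CPM in H9 shDDX18#1 and H9 shDDX18#3, against 5.54 CPM in H9 shLuc, and 3.86 and 4.73 CPM in HES2 shDDX18#1 and HES2 shDDX18#3, against 5.14 CPM in HES2 shLuc. These SRXN1 levels rest on 12 to 20 reads in knockdown libraries and on 20 and 23 reads in shLuc libraries, and every counting interval of its ratios included 1. The differences were -0.06 for TXN (-0.48 to 0.36), 0.00 for TXNRD1 (-0.55 to 0.56) and 0.05 for SRXN1 (-0.64 to 0.73), with limma adjusted p-values of 0.852, 0.997 and 0.933. The sign of these 3 small differences is not settled: TXNRD1 is negative with plain CPM (-0.03) or upper quartile scaling (-0.01) and SRXN1 is negative with quantile normalization (-0.11).

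Ferritin is a hollow shell of heavy chains (FTH1), which oxidise iron, and light chains (FTL), which help the mineral core form. FTH1 (ENSG00000167996, chr11:61959718-61967660, minus strand) had 4784 CPM in H9 shDDX18#1 and 1293 CPM in H9 shDDX18#3, against 888 CPM in H9 shLuc. In HES2 it had 1530 CPM in shDDX18#1 and 995 CPM in shDDX18#3, against 762 CPM in shLuc. H9 shDDX18#1 was far above the other 3 knockdown libraries, with a ratio to shLuc of 5.39 (5.18 to 5.60), against 2.01 (1.92 to 2.10) in HES2 shDDX18#1. With shDDX18#3 the FTH1 ratios were 1.46 (1.39 to 1.53) in H9 and 1.31 (1.25 to 1.37) in HES2. The groups did not overlap, but the knockdown libraries differed so widely, 2150 ± 1769 CPM (SD, n = 4) against 825 ± 89.4 CPM in shLuc (n = 2), that the difference of 1.09 with SE 0.47 did not pass (limma adjusted p = 0.150). It was 0.63 without H9 shDDX18#1 (limma adjusted p = 0.0863) and passed without H9 shDDX18#3 (1.44, 0.0378).

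FTL (ENSG00000087086, chr19:48965301-48966878, plus strand) had 3460 CPM in H9 shDDX18#1 and 1802 CPM in H9 shDDX18#3, against 1121 CPM in H9 shLuc. In HES2 it had 2205 CPM in shDDX18#1 and 1650 CPM in shDDX18#3, against 868 CPM in shLuc. Here too shDDX18#1 was highest in both lines, and every knockdown library was above both shLuc libraries. Ratios to the own line's shLuc were 3.09 (2.97 to 3.20) and 1.61 (1.54 to 1.67) in H9 shDDX18#1 and H9 shDDX18#3, and 2.54 (2.44 to 2.64) and 1.901 (1.83 to 1.98) in HES2 shDDX18#1 and HES2 shDDX18#3. Over both hairpins FTL averaged 2279 ± 821 CPM in knockdown libraries (SD, n = 4) and 994 ± 179 CPM in shLuc libraries (n = 2), and rose by 1.14 with SE 0.28 (limma adjusted p = 0.0298). The FTL call was lost without HES2 shDDX18#1 (limma adjusted p = 0.0866) or HES2 shDDX18#3 (0.0546). Those fits called 771 and 1064 of all tested genes higher, against 1706 with all 6 libraries. It was also lost without H9 shLuc (1.14) or HES2 shLuc (1.15), which leaves 1 shLuc library. The difference stayed between 0.94 and 1.35 over the 6 libraries left out in turn.

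The ferritin messages together made up 0.757% of all reads in H9 shDDX18#1 and 0.300% in H9 shDDX18#3, against 0.199% in H9 shLuc. In HES2 they made up 0.391% in shDDX18#1 and 0.280% in shDDX18#3, against 0.171% in shLuc. All 4 knockdown shares lay above both shLuc shares. The ratio of FTH1 to FTL reads was 1.38 in H9 shDDX18#1, between 0.603 and 0.718 in the other 3 knockdown libraries, and 0.792 and 0.878 in H9 shLuc and HES2 shLuc. FTL thus gained on FTH1 in 3 of the 4 knockdown libraries and FTH1 on FTL in H9 shDDX18#1. Per kilobase of exon, the level of FTL was the highest of the 10 genes in every library, at 1879 to 3941 CPM per kb in knockdown libraries and 988 and 1277 CPM per kb in HES2 shLuc and H9 shLuc, followed by FTH1 at 490 to 2356 CPM per kb in knockdown libraries and 375 and 438 CPM per kb in HES2 shLuc and H9 shLuc.

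**Figure D2:**
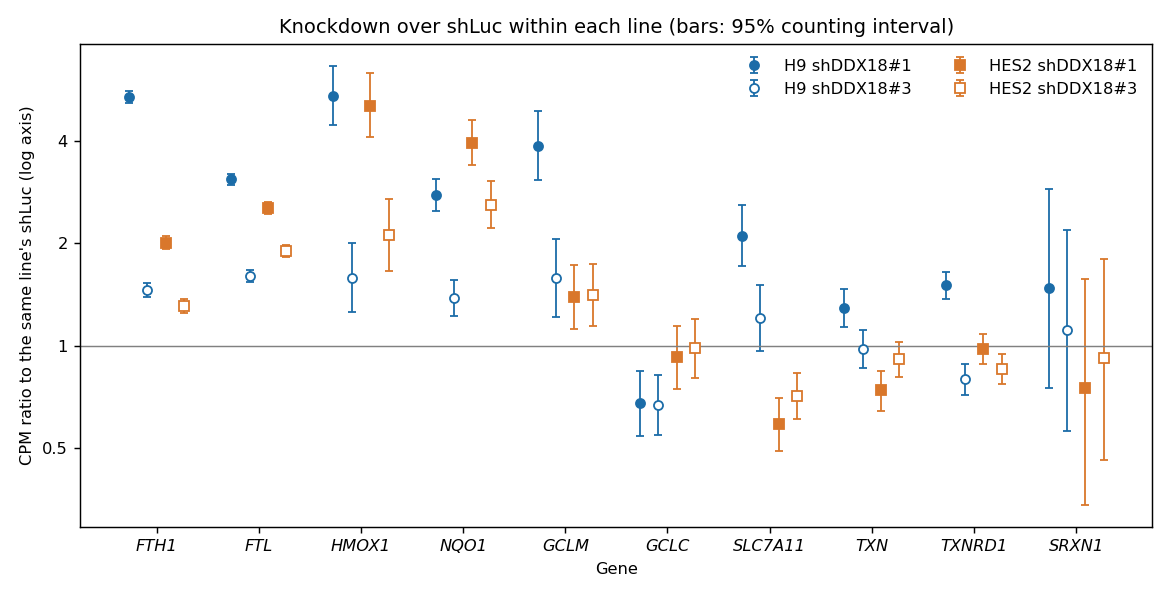
Ratio of each gene's CPM to the same line's shLuc on a log axis for H9 (circles) and HES2 (squares), filled for shDDX18#1 and open for shDDX18#3, with 95% counting intervals. FTH1, FTL, HMOX1, NQO1 and GCLM lie above 1 in all 4 libraries, and the H9 shDDX18#1 ratio of FTH1 (5.39) stands well apart from the HES2 shDDX18#1 ratio (2.01).

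Reads of FTH1 cannot be assigned to it with certainty. BEST1, which encodes a chloride channel known from the retinal pigment epithelium, is annotated on the opposite strand with exons that overlap FTH1 (GENCODE release 29), and the library kit does not keep the strand. BEST1 had 3072 and 913 CPM in H9 shDDX18#1 and H9 shDDX18#3, against 614 CPM in H9 shLuc, and 986 and 690 CPM in HES2 shDDX18#1 and HES2 shDDX18#3, against 473 CPM in HES2 shLuc. It ran at 0.642 to 0.706 of the FTH1 value in knockdown libraries and at 0.620 and 0.692 in HES2 shLuc and H9 shLuc, and it had the line-centred pattern closest to FTH1 of 10476 genes compared. How the reads were divided between the genes is not given in the sources used here. The sum of both gave ratios to the own line's shLuc of 5.23 and 1.47 in H9 shDDX18#1 and H9 shDDX18#3 and of 2.04 and 1.37 in HES2 shDDX18#1 and HES2 shDDX18#3, close to those of FTH1 alone, and a pooled difference of 1.10 (limma adjusted p = 0.140).

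Processed copies of the ferritin genes are another place where reads can be lost or gained. FTH1P16 had 31.4 and 4.21 CPM in H9 shDDX18#1 and H9 shDDX18#3, against 0.831 CPM in H9 shLuc, and 3.54 and 1.39 CPM in HES2 shDDX18#1 and HES2 shDDX18#3, against 0 reads in HES2 shLuc. The FTL copy FTLP3 had 23.3 and 10.7 CPM in H9 shDDX18#1 and H9 shDDX18#3, against 8.03 CPM in H9 shLuc, and 21.6 and 14.2 CPM in HES2 shDDX18#1 and HES2 shDDX18#3, against 9.17 CPM in HES2 shLuc. Copies of FTH1 summed to at most 0.683% of the parent in knockdown libraries and 0.187% in shLuc libraries, and FTLP3 reached at most 0.978% of FTL in knockdown libraries and 1.06% in shLuc libraries. These levels are uncertain, since a short read may match parent and copy alike.

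NQO1 also has neighbours in the table. AC092115.2 (ENSG00000261602), annotated antisense with exons that overlap NQO1, ran at 0.0899 to 0.121 of the NQO1 value in knockdown libraries and at 0.0974 and 0.132 in H9 shLuc and HES2 shLuc, and its reads cannot be told apart from those of NQO1 by strand. NQO1-DT, named as the divergent transcript of NQO1, had 15.9 and 23.0 CPM in H9 shDDX18#1 and H9 shDDX18#3, against 36.3 CPM in H9 shLuc, and 25.4 and 25.9 CPM in HES2 shDDX18#1 and HES2 shDDX18#3, against 44.5 CPM in HES2 shLuc. All 4 knockdown libraries were below both shLuc libraries, opposite to NQO1, and the difference of -0.83 with SE 0.20 passed (limma adjusted p = 0.0312). The NQO1-DT call was lost without HES2 shDDX18#1 (limma adjusted p = 0.0876) or HES2 shDDX18#3 (0.0759). Those fits called 243 and 488 of all tested genes lower, against 1113 with all 6 libraries. It was also lost without either shLuc library, which leaves 1 shLuc library. The NQO1-DT difference stayed between -0.93 and -0.71 over the 6 libraries left out in turn. SLC7A11-AS1 stayed between 5.19 and 7.80 CPM in knockdown libraries, against 5.54 CPM in H9 shLuc and 10.1 CPM in HES2 shLuc.

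**Figure D3:**
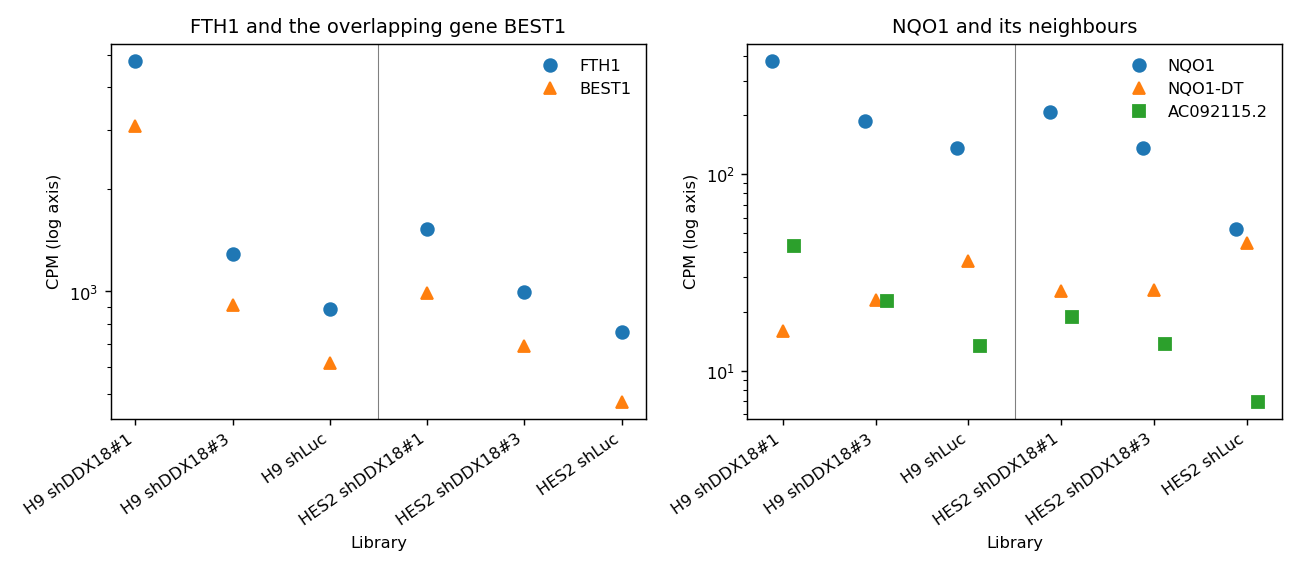
Levels in CPM (log axes) in the 6 libraries of FTH1 with the overlapping gene BEST1 (left panel), and of NQO1 with its divergent transcript NQO1-DT and the antisense gene AC092115.2 (right panel). BEST1 follows FTH1 at 0.620 to 0.706 of its value in every library, while NQO1-DT is lower in each knockdown library than in both shLuc libraries.

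The hairpins were also compared with shLuc one at a time, in a fit that gives each hairpin its own term; both share the same shLuc libraries, so their values are given side by side. With shDDX18#1, 5 of the 10 genes rose and 0 fell, against 14.4% and 13.4% of all tested genes, with medians of 0.73 for the 10 genes and -0.03 for all. HMOX1 rose by 2.35 (SE 0.18, limma adjusted p = 0.000142), NQO1 by 1.71 (0.000799), FTH1 by 1.72 (0.00448), FTL by 1.48 (0.000680) and GCLM by 1.19 (0.0248), each higher in 2 of 2 libraries than in the own line's shLuc. The calls of HMOX1, NQO1, FTH1 and FTL held whichever library was left out, but FTH1 was 1.04 without H9 shDDX18#1. GCLM lost its call without H9 shDDX18#1 (0.50, limma adjusted p = 0.172), H9 shDDX18#3 (0.0614), HES2 shDDX18#3 (0.0651) or H9 shLuc (0.79, 0.0866), and stood at 1.87 without HES2 shDDX18#1. The other 5 genes had differences from -0.33 (GCLC) to 0.28 (TXNRD1), and 0 of them passed.

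With shDDX18#3, 3 of the 10 genes rose and 0 fell, against 6.96% and 3.69% of all tested genes, with medians of 0.24 for the 10 genes and -0.01 for all. NQO1 rose by 0.91 (SE 0.20, limma adjusted p = 0.0265), HMOX1 by 0.85 (0.0203) and FTL by 0.80 (0.0220), each again higher in 2 of 2 libraries. GCLM had 0.57 (95% interval -0.16 to 1.29, limma adjusted p = 0.297) and FTH1 had 0.46 (-0.23 to 1.16, 0.373). With 1 library left out GCLM ran from 0.16 (without H9 shLuc) to 0.97 (without HES2 shLuc), and FTH1 from 0.07 to 0.86 with the same libraries left out, and neither passed in any of these fits. All 3 calls were lost without either shDDX18#3 library, which leaves 1 library of that hairpin, and that of NQO1 also without HES2 shLuc (0.56). Without H9 shDDX18#3 the differences of HMOX1, NQO1 and FTL were 1.08, 1.24 and 0.996. Without HES2 shDDX18#3 they were 0.62, 0.59 and 0.61.

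Between the hairpins the differences were tested directly. HMOX1 was higher with shDDX18#1 by 1.50 (95% interval 1.10 to 1.904), and the limma adjusted p = 0.0541 missed the threshold; edgeR and DESeq2 on the recovered reads gave 1.52 (adjusted p = 0.0252) and 1.54 (4.54e-05). FTH1 was higher by 1.25 (0.56 to 1.95, limma adjusted p = 0.146), NQO1 by 0.80 (0.34 to 1.26, 0.156), FTL by 0.68 (0.29 to 1.07, 0.155) and TXNRD1 by 0.56 (0.14 to 0.98, 0.235). These 5 had an unadjusted p under 0.05, against 14.3% of all tested genes, and limma called 0 of the 17768 genes between hairpins, while edgeR called 21 higher and 10 lower and DESeq2 called 78 higher and 37 lower. Without H9 shLuc or without HES2 shLuc, limma called HMOX1, NQO1, FTH1 and FTL (adjusted p from 0.000566 to 0.0159), in fits that called 416 and 422 of all tested genes higher and 399 and 395 lower. With 1 library left out the hairpin difference ran from 0.58 (without H9 shDDX18#1) to 1.93 (without HES2 shDDX18#1) for FTH1 and from 0.22 to 0.89 for TXNRD1 with the same libraries left out, and for NQO1 from 0.47 (without H9 shDDX18#3) to 1.13 (without HES2 shDDX18#3). For GCLM the interval of the difference, -0.10 to 1.34, included 0, and the value was -0.06 without H9 shDDX18#1. The hairpin with less DDX18 transcript left in each line was also the one with more fibroblast marker reads in that line, and these cannot be told apart.

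**Figure D4:**
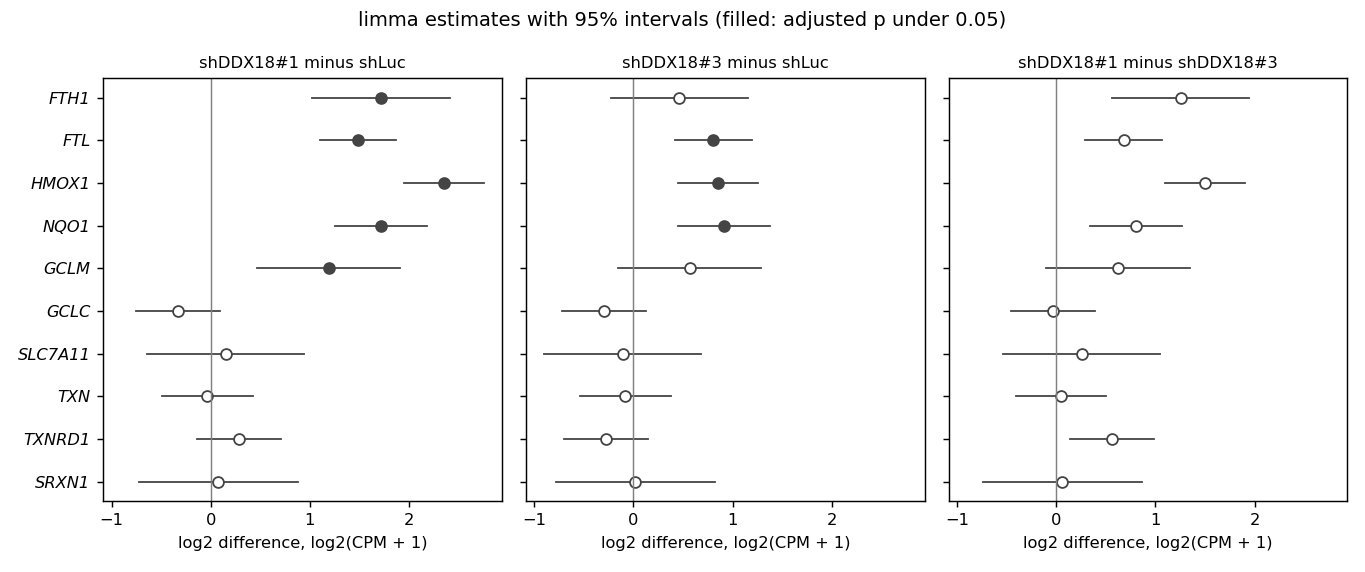
limma estimates of the log2(CPM + 1) difference with 95% intervals for the 10 genes, from left to right shDDX18#1 minus shLuc, shDDX18#3 minus shLuc and shDDX18#1 minus shDDX18#3; filled points passed an adjusted p of 0.05. Filled points number 5, 3 and 0 in the 3 panels, and HMOX1 has the largest estimate with shDDX18#1 (2.35) and between the hairpins (1.50).

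Seen library by library, 9 of the 10 genes in H9 shDDX18#1 and 7 in H9 shDDX18#3 exceeded their own line's shLuc, but 5 in HES2 shDDX18#1 and 5 in HES2 shDDX18#3. Of all tested genes 48.5%, 50.3%, 47.9% and 47.9% did so in these 4 libraries, so the HES2 counts were near that share. The median log2 difference of the 10 was 1.26, 0.36, 0.22 and 0.18 in these 4 libraries, beside -0.02, 0.00, -0.03 and -0.02 for all tested genes. In H9 shDDX18#1 the differences of HMOX1 and FTH1 exceeded those of 97.0% and 97.1% of tested genes, and in HES2 shDDX18#1 those of HMOX1 and NQO1 exceeded 97.3% and 96.1%. In HES2 shDDX18#3 NQO1 (94.6%), HMOX1 (91.8%) and FTL (90.0%) ranked highest of the 10. The larger count in H9 shDDX18#1 came from SLC7A11, TXN, TXNRD1 and SRXN1, which were above shLuc there and below it in both HES2 knockdown libraries.

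Between the lines, with the arm as a block, NQO1 was lower in HES2 than in H9 by a log2 difference of -0.89 with SE 0.17 (limma adjusted p = 0.0193), lower in each of the 3 arms. It was the 1 gene of 10 called lower, against 3.98% of all tested genes, and 0 were called higher, against 1.44%. FTH1 had -0.75 (95% interval -1.31 to -0.18, limma adjusted p = 0.130), TXNRD1 -0.43 (-0.78 to -0.09, 0.149), HMOX1 -0.41 (-0.74 to -0.09, 0.146) and FTL -0.38 (-0.70 to -0.07, 0.160). FTL depended on the scaling, at -0.25 with plain CPM and -0.0026 with quantile normalization, and FTH1 was -0.38 with quantile normalization. With plain CPM scaling the median of all genes in this comparison was 0.15 in place of 0.03, and 45.5% of called genes were higher in HES2, against 26.5% as scaled by the authors. The NQO1 call was lost without any 1 of the 4 knockdown libraries (limma adjusted p from 0.0788 to 0.0995), the difference then being -0.91 or -1.11. These fits called 82 to 358 of all tested genes lower, against 708 with all 6 libraries. Without either shLuc library limma called NQO1, FTH1 (-1.01) and TXNRD1 (-0.52) as lower in HES2, in fits that called 1376 and 1397 of all tested genes lower.

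The authors' deposited table, which sets knockdown against shLuc, gives log2 fold changes of 1.83 for HMOX1, 1.37 for NQO1, 0.93 for GCLM, 1.22 for FTH1 and 1.19 for FTL, each with a false discovery rate under 0.05 in that table (0.000666, 0.000335, 0.0334, 0.0334 and 0.000937). For the other 5 genes the authors' deposited table gives values from -0.32 (GCLC) to 0.05 (SRXN1), with false discovery rates from 0.303 to 0.988. Of its 17929 genes, 2413 had such a rate with a higher value in knockdown and 1689 with a lower one. The pooled limma fit called 1706 higher and 1113 lower of 17768 tested. The fits above thus share the direction of these 5 higher genes, and with both hairpins pooled they call fewer of them and fewer genes in all.

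Most regulators of the pathway did not pass as transcripts. NFE2L2 itself had 77.6 and 62.6 CPM in H9 shDDX18#1 and H9 shDDX18#3, against 54.5 CPM in H9 shLuc, and 76.3 and 75.2 CPM in HES2 shDDX18#1 and HES2 shDDX18#3, against 54.1 CPM in HES2 shLuc. Its 4 knockdown values were above both shLuc values, but the difference of 0.41 did not pass (limma adjusted p = 0.102). KEAP1 had a difference of -0.33 (limma adjusted p = 0.218) and BACH1, a heme-sensing repressor of HMOX1, had 0.53 (0.0713). Of 13 regulators 2 rose and 1 fell, with a median difference of 0.26; in this comparison 9.60% of all tested genes were called higher and 6.26% lower, and the counts of this and the following lists stand beside those shares. MAFF, a small MAF partner, rose by 1.27 (limma adjusted p = 0.0108) and SQSTM1, the autophagy receptor that sequesters KEAP1, rose by 1.10 (0.0290). NFE2L3, an NRF2 relative, fell by 1.67 (limma adjusted p = 0.00966). These genes and those of the next paragraphs were named by p within their lists, except NFE2L2, KEAP1, BACH1, TFRC, ACO1 and IREB2, which were taken for their role after values had been seen.

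Among 33 further NRF2 targets 4 rose, 2 fell and 27 did not pass, near the shares of all genes called (9.60% and 6.26%), with a median of 0.07. ME1, which makes NADPH from malate, had 34.7 and 31.4 CPM in H9 shDDX18#1 and H9 shDDX18#3, against 11.9 CPM in H9 shLuc, and 32.5 and 34.5 CPM in HES2 shDDX18#1 and HES2 shDDX18#3, against 9.84 CPM in HES2 shLuc, and rose by 1.53 (limma adjusted p = 0.00344). Its 4 knockdown values lay close together, unlike those of HMOX1 or FTH1. The glutathione peroxidase GPX2 rose by 1.78 from low levels (limma adjusted p = 0.0177) and the small GTPase gene RIT1 by 0.90 (0.0195). The microsomal glutathione transferase MGST1 fell by 1.16 (limma adjusted p = 0.0153). Of 21 genes of glutathione metabolism 1 rose and 2 fell, beside those shares, with a median of 0.03. Secreted GPX3 rose by 0.84 (limma adjusted p = 0.0208), while GGCT, of the gamma-glutamyl cycle, fell by 1.05 (0.0189) and 5-oxoprolinase, OPLAH, fell by 0.84 (0.0494).

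Of 20 genes of thioredoxins, peroxiredoxins and their partners 2 rose and 0 fell, beside 9.60% and 6.26% of all tested genes, with a median of 0.01: the methionine sulfoxide reductase MSRB3 by 2.24 (limma adjusted p = 0.00310) and the stress-induced sestrin SESN2 by 0.86 (0.0185). Of 10 superoxide and peroxide enzymes 4 rose and 0 fell, beside the same shares, with a median of 0.35. They were the matrix peroxidase PXDN (1.31, limma adjusted p = 0.00439), the NADPH oxidase NOX4 (1.56, 0.0147), ferredoxin reductase FDXR (0.90, 0.0331) and the extracellular superoxide dismutase SOD3 (1.28, 0.0408). PXDN acts on collagen of the basement membrane. It was higher in all 4 knockdown libraries than in both shLuc libraries, as were 19.8% of all tested genes. The part of a change in cell mixture in its level was not tested.

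Of 33 iron handling genes 5 rose and 3 fell, beside 9.60% and 6.26% of all tested genes, with a median of -0.15. The iron exporter ferroportin, SLC40A1, had 17.97 and 9.40 CPM in H9 shDDX18#1 and H9 shDDX18#3, against 3.88 CPM in H9 shLuc, and 40.9 and 21.7 CPM in HES2 shDDX18#1 and HES2 shDDX18#3, against 2.91 CPM in HES2 shLuc, and rose by 2.25 (limma adjusted p = 0.0151). As with ferritin, shDDX18#1 was the higher hairpin in both lines. Here the HES2 knockdown libraries were above the H9 knockdown libraries, while HES2 shLuc was below H9 shLuc. The iron-sulfur scaffold ISCU rose by 0.91 (limma adjusted p = 0.00708), the transporter gene FLVCR2 by 1.23 (0.0175), and the transferrin receptor TFRC by 0.57 (0.0326). The iron regulatory proteins, which bind the IREs shown above, had differences of -0.27 for ACO1 (limma adjusted p = 0.225) and -0.34 for IREB2 (0.221), which was -0.07 without H9 shLuc and -0.62 without HES2 shLuc. NCOA4, the receptor that delivers ferritin to lysosomes, had 306 and 216 CPM in H9 shDDX18#1 and H9 shDDX18#3, against 146 CPM in H9 shLuc, and 375 and 266 CPM in HES2 shDDX18#1 and HES2 shDDX18#3, against 138 CPM in HES2 shLuc. It rose by 1.00 (limma adjusted p = 0.0190).

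Of 18 regulators of ferroptosis, the form of cell death driven by iron-dependent lipid peroxidation, 2 rose and 2 fell, beside 9.60% and 6.26% of all tested genes, with a median of 0.27. NCOA4 was 1 of those that rose, and the lipoxygenase ALOX15 was the other, with 2 to 8 reads in each knockdown library and 0 in both shLuc libraries. The desaturase SCD fell by 1.01 (limma adjusted p = 0.00498) and the oxidoreductase POR by 0.53 (0.0462). Of the 26 genes outside the main 10 that were chosen for naming and passed, 25 passed without H9 shDDX18#1, 24 without H9 shDDX18#3, 10 without HES2 shDDX18#1 and 15 without HES2 shDDX18#3. Those 4 fits called 1610, 1986, 771 and 1064 of all tested genes higher and 1098, 1604, 243 and 488 lower. Most of the 26 calls were lost without either shLuc library, which leaves 1 shLuc library. Without limma's trend 14 passed, and without the cell line as a block 16 passed.

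Cell types that carry heme oxygenase or ferritin in quantity were looked for by markers. Of 7 erythroid markers 0 matched a tested gene, and of 5 macrophage markers ITGAM did, at 0.278 to 1.30 CPM in knockdown libraries and 0.554 and 1.12 CPM in H9 shLuc and HES2 shLuc. Of 5 measured hepatocyte and yolk sac endoderm markers 3 rose, beside 9.60% of all tested genes, and AFP and TTR did not pass. The 5 together had 82.7 to 242 CPM in knockdown libraries and 9.39 and 19.1 CPM in HES2 shLuc and H9 shLuc. AFP had 4.08 and 6.81 CPM in H9 shDDX18#1 and H9 shDDX18#3, against 4.15 CPM in H9 shLuc. In HES2 it had 0.965 and 1.39 CPM in shDDX18#1 and shDDX18#3, against 0.447 CPM in shLuc. TTR was at 0 in both shLuc libraries and at 0.324 CPM, or 1 read, in H9 shDDX18#3. The part of these markers in the values of the 10 genes was not tested.

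The genes closest to each of the 10 in line-centred log2 values over the 6 libraries were found among 10476 genes with a mean of at least 10 CPM, as a description. For HMOX1 they were SOX21 and GSC at distances of 0.285 and 0.301, beside a median of 2.50 over all compared genes. For NQO1 they were CTSL and SMAGP (0.111 and 0.188), for GCLM KDELR3 and SLC10A3 (0.179 and 0.216), and for FTL MAN2B2 and SERINC1 (0.0866 and 0.161). FTH1 had BEST1 and PDZRN3 (0.154 and 0.284). The genes with small or opposed differences were closest to JTB and GTF3C5 (GCLC), RRAS and ITPRIP (SLC7A11), NFE2L1 and CCDC142 (TXN), RNF141 and RASA1 (TXNRD1), and CCDC142 (SRXN1). CTSL, a lysosomal protease, had 129 and 69.1 CPM in H9 shDDX18#1 and H9 shDDX18#3, against 47.1 CPM in H9 shLuc, and 98.8 and 69.6 CPM in HES2 shDDX18#1 and HES2 shDDX18#3, against 26.2 CPM in HES2 shLuc, which is the order of NQO1 in each line.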

How the data were processed

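RNA from 6 libraries (2 lines, 3 hairpin arms) was sequenced with a TruSeq RNA kit per the labels. The submitters' processing notes name Bowtie2 2.3.4.3, SAMtools 1.9, HTSeq 0.11.2, edgeR 3.26.8 and hg19, with no role given. The authors deposited a table of 17929 genes holding, for every library, a normalized signal. The same deposited table holds a log2 fold change, a mean log2 CPM, a likelihood ratio score, p-values and false discovery rates; the score and mean were not used here. Tested on the values, the signal deposited by the authors is reads divided by an effective library size and multiplied by 1000000 (CPM), since 100% of values came out as whole reads within a tolerance of 0.001. A read was worth 0.224 to 0.408 CPM, so a floor of 3 reads lay at 0.671 to 1.23 CPM. Intervals on ratios and shares are 95% exact counting intervals and cover counting error only. Positions and exon lengths came from GENCODE release 29 (GRCh38), symbols from the deposited table for 15532 genes and a gene name table for 2349.

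Of these genes, 17768 reached 1 CPM in 2 or more libraries and were tested on log2(CPM + 1) with limma 3.58.1 in R 4.3.3, with a trend in the prior variance, at an adjusted p under 0.05. The fit of both hairpins against shLuc used cell line as a block (3 residual degrees of freedom). Each hairpin, the hairpin difference, the lines (arm and line terms) and the interaction had 2. Libraries of 1 line share that line, and their deviations from the arm means correlated at 0.654, 0.363 and 0.454 for the 3 pairs of arms. Only the fit of both hairpins against shLuc was tried on simulated counts. Those counts held no difference between lines or hairpins, so they cannot show how the fits handle such differences.

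Other settings tried were count tests on the recovered reads (DESeq2 1.42.0, edgeR 4.0.16), plain CPM, upper quartile and quantile scaling, pseudocounts of 0.25 and 4, a filter of 5 CPM or none, limma with no trend, a robust prior or no block, and each library left out. Summing FTH1 and BEST1 was added after the data were seen. The 10 genes and all lists were chosen with earlier results of these data known. Named were the 10, DDX18, up to 4 called genes of each list by smallest p, copies and overlapping genes, and the 2 closest in pattern. The values of 2 genes that this rule names are not reported here.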

Additional observations from a re-analysis of the deposited data

Results flagged for a closer look

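In H9 shDDX18#1, 3 genes stood apart from the other 3 knockdown libraries. GCLM had 109 CPM there, against 44.7 to 54.6 CPM in the others, a gap of 0.847 of the whole range over the 4 libraries. TXNRD1 had 386 CPM, against 182 to 209 CPM, with a gap of 0.867 of the range. FTH1 had 4784 CPM, against 995 to 1530 CPM, with a gap of 0.859 of the range. All 3 gaps exceed Dixon's 95% critical value for 4 samples, chance alone passes about 1 in 20 groups, and the 4 libraries differ in line and hairpin. The same library had the largest fibroblast marker share (9.30% of reads) and the least DDX18 transcript (12.6% of H9 shLuc), and the part of either was not tested.

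SLC7A11 and SRXN1 had values on opposite sides of shLuc in the lines. Both HES2 knockdown libraries were below HES2 shLuc and both H9 knockdown libraries were above H9 shLuc. The knockdown effect in HES2 minus that in H9 was -1.28 for SLC7A11 and -0.53 for SRXN1, and neither passed (limma adjusted p = 1.00 for both). The SRXN1 values rest on 12 to 23 reads a library, and every counting interval of its ratios included 1. That of SLC7A11 in H9 shDDX18#3 (0.967 to 1.51) did so too.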

How the results depend on the processing

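NQO1 and FTL, called over both hairpins, kept their direction under every alternative run, as did HMOX1, GCLM and FTH1; without the trend or without the cell line as a block the count of genes called higher was 0, and 0 to 5 with 1 library left out (FTL adjusted p = 0.0687 without the block, limma). On the recovered reads edgeR called 1717 genes higher and 1189 lower over both hairpins, beside 1706 and 1113 with limma. Of all tested genes limma called 886 higher without the trend and 790 without the block. With shDDX18#1 it called 1123 higher without the block, in place of 2559. With shDDX18#3 it called 196 without the trend and 16 without the block, in place of 1236. Between the hairpins quantile normalization called 9 and a robust prior 23 higher, in place of 0. Between the lines limma called 144 lower without the trend and 29 without the block, in place of 708. The HMOX1 difference over both hairpins passed with plain CPM scaling (limma adjusted p = 0.0494) and DESeq2 (0.00176). The count for shDDX18#1 was 2 without the block in place of 5, and 4 to 6 with 1 library left out. For shDDX18#3 it was 0 without the trend or without the block, in place of 3, and 0 to 3 with 1 library left out. Between the hairpins it was 1 (HMOX1) with quantile normalization, a robust prior, edgeR or DESeq2, in place of 0, and 0 to 4 with 1 library left out. Between the lines the count called lower was 0 without the trend or without the block, in place of 1, and 0 to 3 with 1 library left out.

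Differences near 0 changed sign: SLC7A11 with plain CPM scaling or edgeR (-0.010 and -0.013), TXNRD1 with plain CPM or upper quartile scaling (-0.029 and -0.010) and SRXN1 with quantile normalization (-0.11). With 1 library left out they ranged from -0.62 to 0.66 for SLC7A11, -0.21 to 0.18 for TXNRD1, -0.22 to 0.31 for SRXN1 and -0.28 to 0.17 for TXN, and the hairpin difference of GCLM from -0.062 to 1.31. The cause was not tested. The interaction could not be fitted without a shLuc library of either line or without the block. Leaving out an arm's library leaves 1 library, which is assumed to vary like the others. Quantile normalization moved the median of all genes by under 0.1, and FTH1 summed with BEST1 kept every call. Depth limits SRXN1 most, at 12 to 23 reads.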
